A study of Mus musculus with 4 samples.

Results

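The antibody light chain variable (V) segments of the mouse were followed through single-cell RNA of the pancreas. All features whose symbol starts with Igkv (kappa) or Iglv (lambda) were taken, which gave 163 of the 31053 features, 160 of them Igkv and 3 Iglv. Of these, 108 had at least 1 unique molecular identifier (UMI, a count of 1 captured RNA molecule) in the retained pancreas barcodes and 55 had none.

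The pancreas libraries held CD45+ leukocytes sorted by flow cytometry from pre-diabetic females aged 12 weeks, pooled from 4 mice per genotype. One library came from mice with a floxed Ocab gene, labelled Ocabfl/fl and called control, and the other from Ocabfl/fl.CD4-Cre mice, called CD4-Cre. In the CD4-Cre mice a Cre recombinase under the Cd4 promoter removes Ocab (Pou2af1, a coactivator for Oct transcription factors) from T cells, so B cells of both genotypes carry the floxed allele and are not the intended target. The companion libraries held magnetically purified CD3 T cells of pancreatic lymph nodes, from females of the same genotypes at 8 weeks of age, also pre-diabetic, with 5 mice pooled for each. They held few B and plasma barcodes and serve here mainly as a second background for T cells. Each genotype has 1 library per tissue, so there is no replicate check, no test between genotypes and no p-value. Intervals are exact or Newcombe 95% intervals that cover counting error only, and the mouse of origin of a barcode is not known. The labels do not give the strain. The published study used the NOD background, whereas the reads were counted on mm10, an assembly of C57BL/6J, so a segment that differs in another strain can be undercounted or counted under a relative's name.

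Each B cell makes 1 light chain by joining a V segment to a short J segment in front of a constant region. The kappa locus lies on chromosome 6 and carries many V segments before a single constant region, Igkc. The lambda locus on chromosome 16 carries 3 V segments in this annotation and the Iglc constant regions. Most mouse B cells use kappa. Because all offspring of a B cell keep its rearranged segments, the segment with most UMIs in a barcode is a partial label of its clone, and the label is incomplete because many unrelated cells use the same segment and the junction is not in these files. Plasma cells are the antibody-secreting end stage of the lineage and devote a large part of their RNA to their own light and heavy chain.

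Many of these segments are near copies of each other, which sets how well they can be told apart by reads from the 5′ end of the RNA. The first 120 coding bases of the segments on which the results turn are printed from the GENCODE M21 transcripts of GRCm38, the assembly that mm10 names. Capitals in the first 3 pairs mark bases that differ from the partner. Igkv12-46 (chr6:69764523-69764992, minus strand) led more B barcodes than any other segment, and its partner Igkv12-44 (chr6:69814631-69815100, minus strand) was often counted in the same barcodes.
Igkv12-46: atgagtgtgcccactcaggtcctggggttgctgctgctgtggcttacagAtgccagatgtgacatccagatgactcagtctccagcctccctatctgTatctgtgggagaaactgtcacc
Igkv12-44: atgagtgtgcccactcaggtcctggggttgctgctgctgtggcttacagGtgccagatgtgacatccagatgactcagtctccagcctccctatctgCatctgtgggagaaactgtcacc
Only 2 of 120 bases differ in this window. Igkv10-96 (chr6:68631963-68632430, minus strand), the next most used over both libraries, and Igkv10-94 (chr6:68704508-68704978, minus strand) are identical in it, so they carry no capitals.
Igkv10-96: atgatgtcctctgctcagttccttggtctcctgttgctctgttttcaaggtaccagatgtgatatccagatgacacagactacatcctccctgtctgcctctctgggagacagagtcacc
Igkv10-94: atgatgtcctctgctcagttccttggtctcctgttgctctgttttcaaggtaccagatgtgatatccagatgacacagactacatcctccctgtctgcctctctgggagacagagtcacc
The lambda segments Iglv1 (chr16:19085017-19085460, minus strand) and Iglv2 (chr16:19260401-19260844, minus strand) decide the lambda calls and differ at 6 of 120 bases.
Iglv1: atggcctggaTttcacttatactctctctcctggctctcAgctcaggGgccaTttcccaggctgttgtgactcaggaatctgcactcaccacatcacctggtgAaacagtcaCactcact
Iglv2: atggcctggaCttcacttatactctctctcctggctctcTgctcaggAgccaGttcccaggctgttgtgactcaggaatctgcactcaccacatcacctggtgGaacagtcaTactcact
The last 3 have no such partner in the results, and capitals mark only their start codon. Igkv2-137 (chr6:67555636-67556216, plus strand) led the free RNA of 1 library. Igkv14-126 (chr6:67896177-67896642, plus strand) was mostly found with 1 heavy chain segment. Igkv8-24 (chr6:70216858-70217421, minus strand) gave more plasma light V RNA than any other single segment in 1 library, with 35635 of 137627 UMIs.
Igkv2-137: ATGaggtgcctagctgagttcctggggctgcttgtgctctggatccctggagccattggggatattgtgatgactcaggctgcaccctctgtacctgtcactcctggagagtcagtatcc
Igkv14-126: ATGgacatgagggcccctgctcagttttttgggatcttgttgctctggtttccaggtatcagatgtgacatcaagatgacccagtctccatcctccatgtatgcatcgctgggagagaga
Igkv8-24: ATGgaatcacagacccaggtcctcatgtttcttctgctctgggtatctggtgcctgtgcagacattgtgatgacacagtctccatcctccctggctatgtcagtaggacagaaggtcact

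Over whole coding parts, 103 of the 163 segments have one in the annotation and the other 60 are annotated as pseudogenes. The median identity of the 5253 pairs of these 103 segments was 63.2%, and 48 segments had a relative at 95% identity or more. Igkv12-46 and Igkv12-44 were 95.4% identical, as were Igkv10-96 and Igkv10-94. Iglv1 and Iglv2 were 96.9% identical, while Iglv1 and Iglv3 were 53.8% identical. Counts within such pairs are therefore uncertain.

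Barcodes were called plasma when Jchain, Mzb1, Xbp1 and Derl3 summed to at least 20 UMIs, and of the rest those were called B in which Cd79a and Ms4a1 summed to at least 2. T barcodes had at least 2 UMIs of Cd3d, Cd3e and Cd3g and met neither rule. After filtering, the control pancreas held 926 B, 25 plasma and 2330 T barcodes among 4004 retained, and the CD4-Cre pancreas 1354, 41 and 4068 among 6238. Deposited totals were 20807342 UMIs in the control and 32798133 in the CD4-Cre pancreas library, and 14851217 and 27830077 in the lymph node libraries. The median depth of B barcodes was 3563 and 3424 UMIs, and that of plasma barcodes was 18788 and 19911. Shares of barcodes with a UMI are therefore not comparable between B and plasma barcodes. All 9 B markers read outside the rule, such as Cd22 and Pax5, were found in at least 10% of B barcodes of both libraries. T cell markers passed that level for 1 of 10 in B barcodes, and B markers for 1 of 9 in T barcodes. All 10 plasma markers outside the rule, such as Sdc1 and Prdm1, passed it in plasma barcodes, but so did all 9 B markers, and each of the 25 and 41 plasma barcodes also reached the B minimum. T cell markers passed it there for 5 of 10 in control and 3 of 10 in CD4-Cre, NK cell markers for 2 of 4 and 0 of 4, and exocrine genes for 5 of 5 and 0 of 5 (281 and 25.2 CPM in sum), and their part in the plasma results was not tested. Levels are given as CPM, the UMIs of a gene scaled to the summed UMIs of the barcode class. In control and CD4-Cre, the T cell markers summed to 182 and 117 CPM in plasma barcodes, against 259 and 270 in B barcodes. The NK cell markers summed to 49.5 and 2.29 against 4.34 and 20.6, and the plasma markers to 1262 and 1187 against 499 and 504. Pou2af1 itself stood at 214 and 213 CPM in control and CD4-Cre B barcodes, and at 4.62 and 0.576 in T barcodes (45 and 10 UMIs). The 2 pancreas libraries shared 36 retained barcode sequences, of which 2 had a light chain call in both, with different segments.

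Almost every B barcode carried light V RNA. The median was 27 light V UMIs in control and 30 in CD4-Cre B barcodes, and the median share of a barcode's UMIs was 0.761% and 0.858%. A leading segment could be given to 906 of 926 control and 1324 of 1354 CD4-Cre B barcodes, since 7 and 10 barcodes had no light V UMI and 13 and 20 had a tie. Of the 163 segments, 79 led at least 1 B barcode, 27 led at least 1 plasma barcode and 84 led neither. The control B barcodes used 73 segments and the CD4-Cre B barcodes 75, with 69 used in both. The effective number of segments, the inverse of the chance that 2 barcodes drawn at random share one, was 30.2 in both libraries. The 10 leading segments held 45.3% of control and 43.6% of CD4-Cre B barcodes.

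Igkv12-46 led 93 control B barcodes (10.3%, interval 8.37 to 12.4%) and 139 CD4-Cre B barcodes (10.5%, interval 8.90 to 12.3%). The difference was 0.23 percentage points with an interval of -2.41 to 2.76, so none was detectable at these barcode numbers. By barcodes of both libraries together, Igkv10-96 followed with 60 barcodes (6.62%) in control and 76 (5.74%) in CD4-Cre. Next came Igkv1-135 with 39 and 84 barcodes, Igkv6-15 with 43 and 52, and Igkv6-20 with 41 in each library. Igkv6-32 led 34 and 43 barcodes, Igkv1-117 led 28 and 42, and Igkv19-93 led 24 and 32. Igkv4-53 led 23 and 31 barcodes and Igkv2-109 led 16 and 37. In CD4-Cre the interval of Igkv12-46 lay above that of every other segment, while in control it overlapped that of Igkv10-96. Further down, the intervals of neighbouring segments overlapped, so their order is not resolved. Across the 79 segments the barcode numbers of both libraries followed each other closely (Pearson's r 0.95, Spearman's rho 0.89), as a description of 2 libraries in which the abundant segments dominate r.

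**Figure D1:**
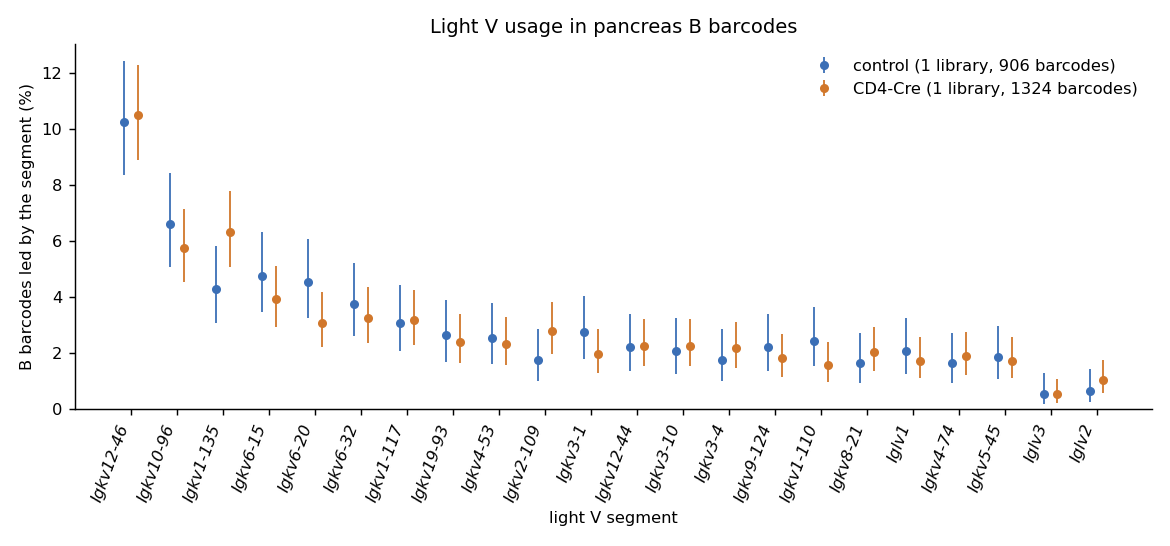
Share of B barcodes (y axis, percent) led by each of the 20 most used light V segments and the other lambda segments (x axis), control in blue and CD4-Cre in orange, 1 library each, with exact 95% binomial intervals. Igkv12-46 stands highest in both libraries at 10.3% and 10.5%, and intervals overlap between libraries for each segment shown.

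The largest gains in share from control to CD4-Cre B barcodes were those of Igkv1-135, by 2.04 points (interval 0.104 to 3.88), Igkv2-109, by 1.03 points, and Igkv15-103, by 0.825 points. The largest losses were those of Igkv6-20, at -1.43 points (interval -3.18 to 0.163), Igkv12-41, at -1.04 points (interval -2.27 to -0.0068), and Igkv10-96, at -0.882 points. Of the 79 segments compared, the counting interval lay above 0 for 1, Igkv1-135, and below 0 for 4, Igkv12-41, Igkv13-85, Igkv8-34 and Igkv4-79. The last 3 of these rest on at most 5 barcodes in either library. These intervals are not corrected for the 79 comparisons.

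Usage was uneven along the kappa locus and similar in both libraries. Counted from Igkc, the nearest 25 of the 100 annotated Igkv genes (Igkv3-1 to Igkv6-29) led 24.4% of control and 24.1% of CD4-Cre kappa B barcodes that were led by an annotated gene. The next 25, among them Igkv12-46, led 29.7% and 29.5%, and the farthest 25, among them Igkv1-135 and Igkv2-137, led 29.7% and 32.9%. The remaining 25, from Igkv4-62 to Igkv12-98, led 16.3% and 13.5%. Genes on the strand of Igkc, 38 of the 100, led 36.0% and 39.8%. By family, Igkv12 led 15.7% and 14.9% of all assigned B barcodes, Igkv1 led 15.0% and 15.6%, Igkv6 led 14.2% and 11.9%, and Igkv4 led 10.6% and 11.4%. The Igkv4 family spread its barcodes over 20 leading segments of 33, whereas Igkv12 had 4 leading segments of 12 and Igkv10 only 1 of 3. Annotated pseudogenes led 1.77% and 2.64% of B barcodes, and 32 of these 51 barcodes were led by Igkv4-56.

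**Figure D2:**
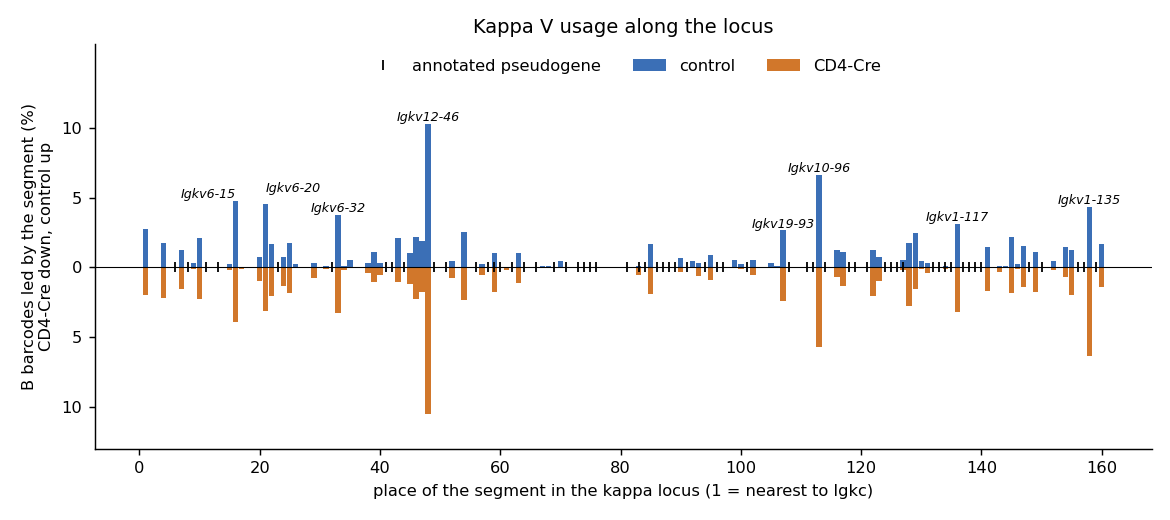
Share of B barcodes (percent) led by each Igkv segment, ordered by place in the locus from the segment nearest Igkc, with control upward and CD4-Cre downward. Black ticks mark annotated pseudogenes, and Igkv12-46 stands highest in both directions, at 10.3% and 10.5%.

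Lambda use was low and alike in level in both libraries. Iglv segments led 30 of 906 control B barcodes (3.31%, interval 2.25 to 4.69%) and 44 of 1324 CD4-Cre B barcodes (3.32%, interval 2.42 to 4.44%). The difference was 0.012 points with an interval of -1.60 to 1.49. Iglv1 led 19 and 23 of these barcodes, Iglv2 led 6 and 14, and Iglv3 led 5 and 7. In the lymph node control library 0 of 44 B barcodes had a lambda call, which allows a share of up to 6.82% by the limit of 3 counts (exact interval up to 8.04%). In plasma barcodes 1 of 24 in control (4.17%) and 3 of 41 in CD4-Cre (7.32%) had one, a difference of 3.15 points with an interval of -13.6 to 15.7. In summed UMIs the difference was 17.5 points, and at a plasma rule sum of at least 100 it was 16.7 points. All 3 in CD4-Cre were led by Iglv2 and the 1 in control by Iglv1.

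In B barcodes the constant regions did not separate kappa from lambda calls. In kappa-called control B barcodes, the Iglc genes (lambda constant regions) held 7784 UMIs against 7104 of Igkc, 52.3% of all light constant UMIs, and in kappa-called CD4-Cre B barcodes 53.7%. In barcodes led by Iglv1 the Iglc share was higher, 64.2% in control and 72.8% in CD4-Cre, yet Igkc still gave 114 and 74 UMIs there. In those led by Iglv2 it was 52.7% and 70.8%, and in those led by Iglv3 67.1% and 60.0%. A call from the constant region alone would therefore have made 54.1% of control and 57.3% of CD4-Cre B barcodes lambda. In kappa-called plasma barcodes the Iglc share was 12.1% in control and 20.4% in CD4-Cre. The 3 CD4-Cre plasma barcodes led by Iglv2 had 1283 Iglc UMIs, 1169 of them Iglc2, and 36 of Igkc, while the 1 control plasma barcode led by Iglv1 had 16 Iglc and 32 Igkc UMIs. Why kappa-called B barcodes carry Iglc counts was not tested, and the kappa and lambda shares given here rest on the V segments.

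Many barcodes held a further segment with at least 3 UMIs and at least 10% of the leading one. This was so for 279 of 906 control B barcodes (30.8%) and 489 of 1324 in CD4-Cre (36.9%). Second segments of the same family were found in 128 control barcodes (14.1%) and 303 CD4-Cre barcodes (22.9%), a difference of 8.76 points with an interval of 5.50 to 11.9. Second segments of another family were found in 151 (16.7%) and 186 (14.0%), a difference of -2.62 points with an interval of -5.73 to 0.402. The most frequent pairs were near copies. Igkv12-44 came second in 21 of 93 control and 48 of 139 CD4-Cre B barcodes led by Igkv12-46. Igkv10-94 came second in 28 of 60 and 44 of 76 led by Igkv10-96, the pair whose first 120 bases are identical.

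The share of barcodes with the relative as second segment was higher in the CD4-Cre library for 12 of the 12 most frequent pairs, and the counting interval of the difference lay above 0 for 4 of them. The pairs were ranked by barcodes of both libraries together, of which CD4-Cre gave more, so the ranking favours pairs frequent there. Some segments stand in more than 1 pair, so the pairs are not independent. For Igkv1-135 with Igkv1-131, 92.8% identical, the share was 6 of 39 barcodes (15.4%) in control and 38 of 84 (45.2%) in CD4-Cre. For Igkv1-117 with Igkv1-110, 97.2% identical, it was 1 of 28 and 12 of 42. For Igkv9-120 with Igkv9-129 it was 1 of 13 and 12 of 22, and for Igkv6-15 with Igkv6-13 it was 3 of 43 and 14 of 52. The libraries thus differed in how often light V RNA of 1 barcode was counted under related segments. Igkv1-131 and Igkv9-129, second members of 2 of these pairs, had 3.49 and 2.54 times the CPM in CD4-Cre B barcodes. Both led 0 B barcodes, so these counts overlap those that define the pairs and are not a separate observation. Igkv1-110 and Igkv6-13, second members of the other 2 pairs named, did not reach 2-fold. Whether sequencing, alignment or the cells set the difference in counting under relatives was not tested.

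Summed over B barcodes and scaled to CPM, 88 segments reached 20 UMIs over both libraries and 75 did not. Of the 88, 10 were at least 2-fold higher and 9 at least 2-fold lower in CD4-Cre, against 2.59% and 0.944% of the 10279 features that reached the same minimum. Their median log2 ratio was 0.13, near the 0.07 of all features. The wider spread stood in segments that few barcodes used. Igkv4-91 had 173 UMIs in control, led 3 barcodes there and was at 0 in CD4-Cre, at least 82.9-fold lower with a floor of 3 UMIs per library. Igkv1-122 had 19 and 313 UMIs and led 1 and 4 barcodes. These 2 were picked after their values were seen. None of the 10 most used segments was among the 19.

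The heavy chain partner, taken as the Ighv segment with most UMIs, was mostly varied within a light segment. The 84 control B barcodes led by Igkv12-46 that had a heavy call used 48 heavy segments, and the most frequent, Ighv3-6, made up 8 of them. The 132 in CD4-Cre used 54, with Ighv3-6 in 12. Igkv14-126, noticed after the values were seen, was different. Of its B and plasma barcodes with a heavy call, 13 of 16 in control (81.2%, interval 54.4 to 96.0%) and 12 of 20 in CD4-Cre (60.0%, interval 36.1 to 80.9%) had Ighv11-2. Among all other barcodes with a heavy call, Ighv11-2 was found in 2 of 812 and 1 of 1268. This pair of segments is known from B-1 cells, whose receptors with it bind phosphatidylcholine. It was found in B and in plasma barcodes, and the 2 control and 1 CD4-Cre plasma barcodes led by Igkv14-126 all carried it. Those plasma barcodes lay near the rule minimum of 20, with sums of 21 and 22 in control and 26 in CD4-Cre. Their light V RNA was 2.23%, 2.37% and 1.39% of UMIs, and they held 0, 0 and 1 UMIs of the plasma marker Sdc1.

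The plasma barcodes ranged from very high light V RNA to little, without a wide gap between them in control. A level of 5% of a barcode's UMIs, chosen after the values were seen, separated 13 control and 16 CD4-Cre barcodes above it from 12 and 25 below. Above it, light V RNA took a median of 31.3% of all UMIs in control, with a range of 5.55 to 59.9%, and 39.6% in CD4-Cre, with a range of 7.22 to 45.2%. Sdc1, a surface marker of plasma cells, was found in 12 of 13 and 13 of 16 of these, and Mki67, a marker of dividing cells, in 6 of 13 and 5 of 16. Below it the medians were 0.474% and 0.910%, Sdc1 was found in 1 of 12 and 1 of 25, and Mki67 in 5 of 12 and 19 of 25. The values just inside and outside the split were 5.55% and 3.65% in control and 7.22% and 2.60% in CD4-Cre. The control barcode at 3.65%, led by Igkv2-137, had 1203 Igkc UMIs and a rule sum of 334. It was the 1 with Sdc1 below the split in control, so the split does not cleanly separate secretors there.

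The barcodes above 5% were spread over many light segments. The 13 control barcodes used 9 segments and the 16 CD4-Cre barcodes 11. In control, Igkv12-44 gave the highest value, 13525 UMIs in 1 barcode, followed by Igkv3-7 with 11001 and Igkv1-117 with 9714. Igkv4-74 led 2 control barcodes with 3600 and 2182 UMIs, and both had Ighv1-81 and IgM. In CD4-Cre, Igkv8-24 led 4 barcodes with 7762 to 10858 UMIs, all IgM, and 3 of them had Ighv1-42. Iglv2 led 2 with 10442 and 12664 UMIs, both IgA with Ighv9-3, and Igkv3-7 gave the highest single value, 15617. Isotypes above the split were IgA in 7, IgM in 3 and IgG in 3 control barcodes, and IgA in 7, IgM in 4 and IgG in 5 CD4-Cre barcodes.

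**Figure D3:**
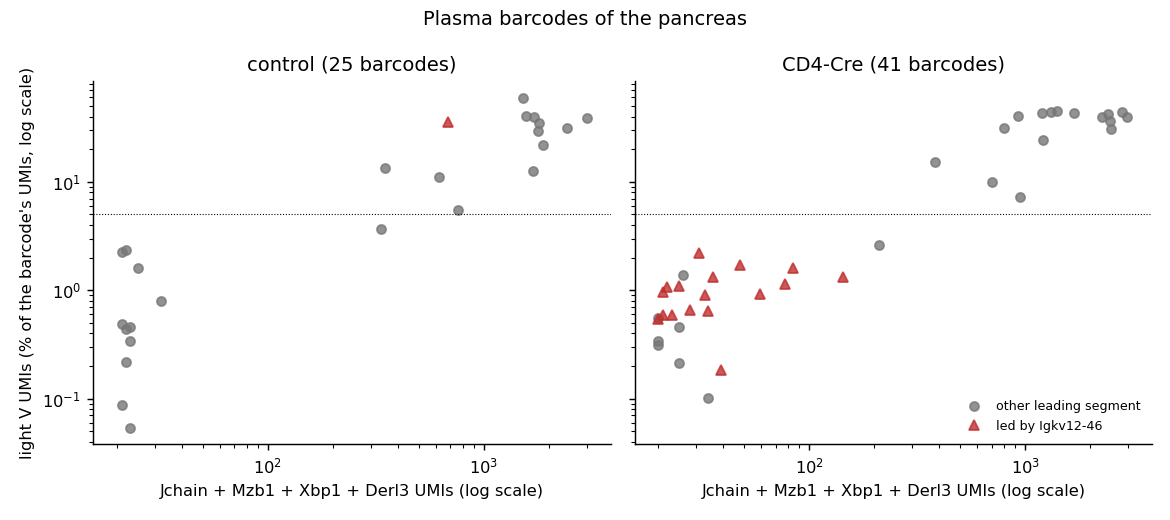
Each point is 1 plasma barcode, control left (25) and CD4-Cre right (41), by the summed UMIs of the rule genes (x axis, log scale) and light V UMIs as a percent of all its UMIs (y axis, log scale), with the dotted line at 5%. The 17 CD4-Cre barcodes led by Igkv12-46 (red triangles) all lie below the line, and the 1 in control lies above it.

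Igkv12-46 led 17 of 41 CD4-Cre plasma barcodes (41.5%) and 1 of 24 in control (4.17%), a difference of 37.3 points with an interval of 16.2 to 52.8. This interval counts each barcode as independent, which would not hold for barcodes of 1 clone. With a plasma rule sum of at least 100 the difference was -1.59 points. The 17 barcodes all lay below 5% light V RNA, with rule sums of 20 to 143. Of them, 15 had an Mki67 UMI and 0 had Sdc1. Their isotype was Ighg1 in 11 and Ighm in 6. The 1 control barcode led by Igkv12-46 was a secretor with 6140 UMIs of it and Igha. Among control plasma barcodes Igkv6-23 led most, 3 with 3 different heavy segments, and it led none in CD4-Cre, a difference of -12.5 points (interval -31.0 to -0.672). In 1 of the 3 it had 1162 UMIs against 1110 of its relative Igkv6-15, and in another it had only 23. The plasma intervals are not corrected for the 27 segments compared. Igkv8-24 led 0 and 4 (difference 9.76 points, interval -5.25 to 22.5), Iglv2 led 0 and 3, and Igkv1-135 led 2 and 0. Effective segment numbers, which also count each barcode on its own, were 14.4 in control and 5.05 in CD4-Cre plasma barcodes.

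Some CD4-Cre barcodes led by Igkv12-46 carried the same second kappa segment, Igkv4-74, which is not a near copy. Over all B and plasma barcodes of CD4-Cre, 19 of 1395 held at least 3 UMIs of both Igkv12-46 and Igkv4-74, and 0 of 951 did in control. Of the 19, 17 had an Mki67 UMI and 0 had Sdc1. Igkv12-46 led 18 of the 19 and Igkv4-74 led 1. In these 19, Igkv12-46 ran from 18 to 282 UMIs with a median of 98, Igkv4-74 from 5 to 105 with a median of 30, and Igkv12-44 from 1 to 109 with a median of 35. By contrast, Igkv4-74 was at 0 in all 138 other CD4-Cre barcodes and all 94 control barcodes led by Igkv12-46. Igkv12-44 stood at a median of 34.7% of the Igkv12-46 UMIs in the 19 barcodes, at 8.25% in the 138 and at 6.07% in the 94.

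Their heavy chain counts were low but also shared. Ighv1-19 was found in 17 of the 19 and Ighv1-7 in 13, with both in 11. None of the 1376 other CD4-Cre B and plasma barcodes, and none of the 951 in control, held UMIs of both heavy segments. Of the 19, 17 were classed as plasma and 2 as B, and their depth was high, 10459 to 37253 UMIs with a median of 19706, against a median of 3564 in the 138 others. Among listed barcodes before filtering 20 met the criterion. The set rests on 1 library of 4 pooled mice, the junction sequences were not analysed here, and the pattern was picked after its values were seen, so whether these barcodes are 1 clone was not tested.

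**Figure D4:**
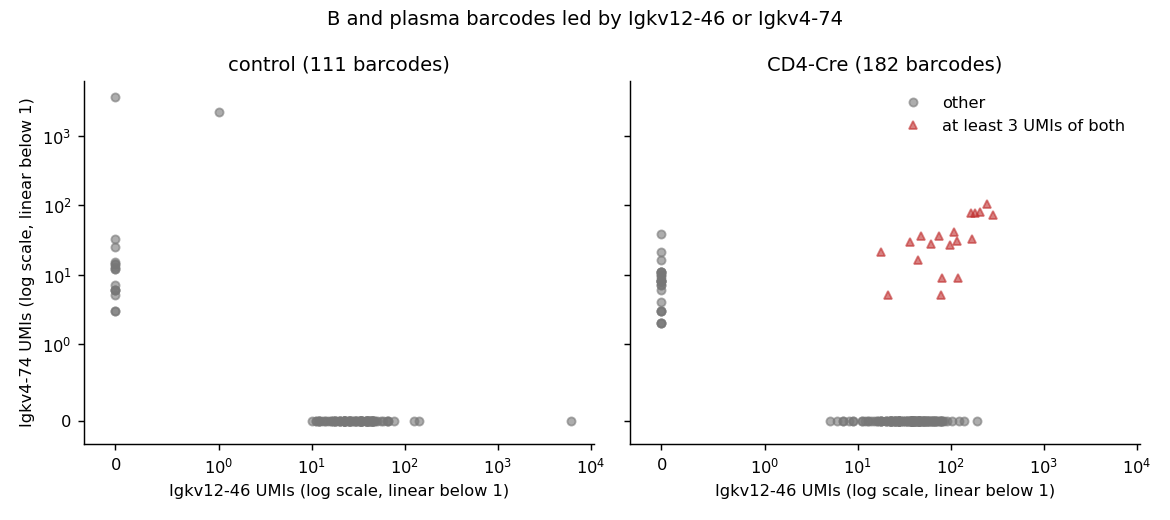
UMIs of Igkv12-46 (x axis) and of Igkv4-74 (y axis), log scale and linear below 1, in each B or plasma barcode led by either segment, control left and CD4-Cre right. The 19 barcodes with at least 3 UMIs of both are all in CD4-Cre (red triangles), and the rest lie on the axes or at 1 UMI.

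Summed UMIs of plasma barcodes followed the few secretors. Of the segments, 44 reached 20 UMIs over both libraries, of which 16 were at least 2-fold higher and 23 at least 2-fold lower in CD4-Cre, against 12.2% and 3.78% of the 5525 features at this minimum. The median log2 ratio was -1.64 over the 44 segments and 0.22 over all features, and 18 of the 44 were at 0 in 1 library and were set at a floor of 3 UMIs. Igkv8-24 was at 0 in the control class and reached 35635 UMIs in CD4-Cre, at least 6877-fold higher, through the 4 barcodes it led. Igkv8-21 had 8842 and 2 UMIs, and 8841 of these came from 1 control barcode. Igkc stood at 22510 CPM in control and 7815 in CD4-Cre plasma barcodes, and all light V segments together at 192760 and 157826.

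Other genes of the light chain system were read in B barcodes beside the V segments. Pou2f2, the Oct factor of B cells, stood at 430 CPM in control and 411 in CD4-Cre, and Pou2f1 at 35.3 and 26.5. Vpreb3 stood at 261 and 270. Rag1 and Rag2, which rearrange the segments, had 0 UMIs in B barcodes of both libraries. Dntt, and Igll1 and Vpreb2 of the surrogate light chain of precursor B cells, were also at 0, while Vpreb1 had 5 and 1. Under the limit that a count of 0 allows, 3 UMIs per library, the genes at 0 were not detectable. All 9 light J segments had 0 UMIs in every class.

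T cells do not rearrange light chains, so light V UMIs in T barcodes serve as the background level of free RNA and mixed barcodes. They stood at 13.0 CPM in control T barcodes (127 UMIs, interval 10.9 to 15.5) and at 16.5 in CD4-Cre (287 UMIs, interval 14.7 to 18.6). B barcodes held 620 and 536 times as much. A light V UMI was found in 106 of 2330 control T barcodes (4.55%) and 261 of 4068 in CD4-Cre (6.42%), where a T barcode had 3462 and 3553 UMIs at the median. In B barcodes the shares were 99.2% and 99.3%. Thinned to 1000 UMIs, leaving out 13 and 18 shallower barcodes, the expected shares were 1.47% and 1.98% in T barcodes and 96.7% and 97.2% in B barcodes. Most T barcodes with a light V UMI had only 1, in 97 of 106 and 245 of 261. In the lymph node libraries, which held few B barcodes, the level was 3.58 CPM in control and 1.10 in CD4-Cre T barcodes. The level in B barcodes lies so far above this that subtracting the T level moved the lambda shares to 3.29% and 3.31%.

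The log2 ratio of the pancreas T level was 0.34 (interval 0.04 to 0.66). Igkv2-137 was at 0 in control T barcodes, which allows up to 3 UMIs, and at 74 UMIs in CD4-Cre, spread over 72 barcodes and 25.8% of all light V UMIs there. Without Igkv2-137, which was picked after its values were seen and whose removal can only lower the ratio, it was -0.088 (interval -0.41 to 0.24). No other segment was left out in turn. Summed UMIs of 5 exocrine enzyme genes, RNA from acinar cells, were higher in CD4-Cre T barcodes, at 112 and 564 CPM. The share of T barcodes with a UMI was not higher in the same way. It was 2.32% and 1.62% for Cpa1, 4.51% and 3.83% for Ctrb1, and 3.56% and 3.15% for Pnlip. For Cela1 it was 2.45% and 2.36%, and for Prss2 2.79% and 2.85%. The part of these genes in the result was not tested. Of the segments, 5 reached 20 UMIs over both libraries in T barcodes, and 3 were at least 2-fold higher (Igkv2-137, Igkv17-127 and Igkv1-117) and 1, Igkv12-46, at least 2-fold lower, against 1.16% and 1.8% of 11831 features.

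Segments of some abundant secretors were among the leading ones in T barcodes of the same library, while those of others were not. Igkv2-137 stood out in amount. Across the segments with a UMI in either class, T UMIs followed plasma UMIs with Pearson's r 0.64 and Spearman's rho 0.22 in control (56 segments) and 0.53 and 0.43 in CD4-Cre (62 segments). They followed B UMIs with 0.69 and 0.58 (102 segments) and 0.26 and 0.69 (100 segments). These are descriptions within 1 library each, whose classes share the same free RNA. In CD4-Cre they were led by Igkv2-137 (74 UMIs), Igkv8-24 (36), Igkv1-117 (26), Igkv17-127 (19) and Igkv8-19 (17), and Iglv2 had 15. Igkv17-127 and Igkv8-19 were each led by 1 secretor with 9416 and 6576 UMIs. Igkv3-7 and Igkv1-110, with secretors of 15617 and 11210 UMIs, were not among these leading segments. In control the leading segments in T barcodes were Igkv12-44 (14 UMIs), Igkv12-46 (13), Igkv8-21 and Igkv8-24 (11 each) and Igkv6-20 (9). All 11 Igkv8-24 UMIs there sat in 1 barcode, while those of Igkv12-44 were spread over 14. Igkv8-24 and Igkv6-20 led no control plasma barcode. Igkv3-7, with a control secretor of 11001 UMIs, was not among the leading segments. Igkv1-117, with control secretors of 9714 and 6988 UMIs, had 7 UMIs in control T barcodes. Per 10000 UMIs in B and plasma barcodes of the CD4-Cre library, T barcodes held 9.85 of Igkv8-24, 18.9 of Igkv1-117 and 17.6 of Igkv17-127, but 240 of Igkv2-137. The retained Igkv2-137 secretors, 2 barcodes with 1408 and 1346 UMIs, were both IgA, with Ighv1-18 and Ighv1-64. Ighv1-18 had 21 UMIs in T barcodes of CD4-Cre and 1 in those of control, Ighv9-3 had 30 and 0, and Ighv1-64 had 0 and 1. Igkv2-137 led 15 control and 19 CD4-Cre B barcodes (1.66% and 1.44%). Where this RNA came from was not tested. Among the lambda constant genes, T barcodes held 4 (control) and 51 (CD4-Cre) UMIs of Iglc3, and 11 and 17 of Iglc2.

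**Figure D5:**
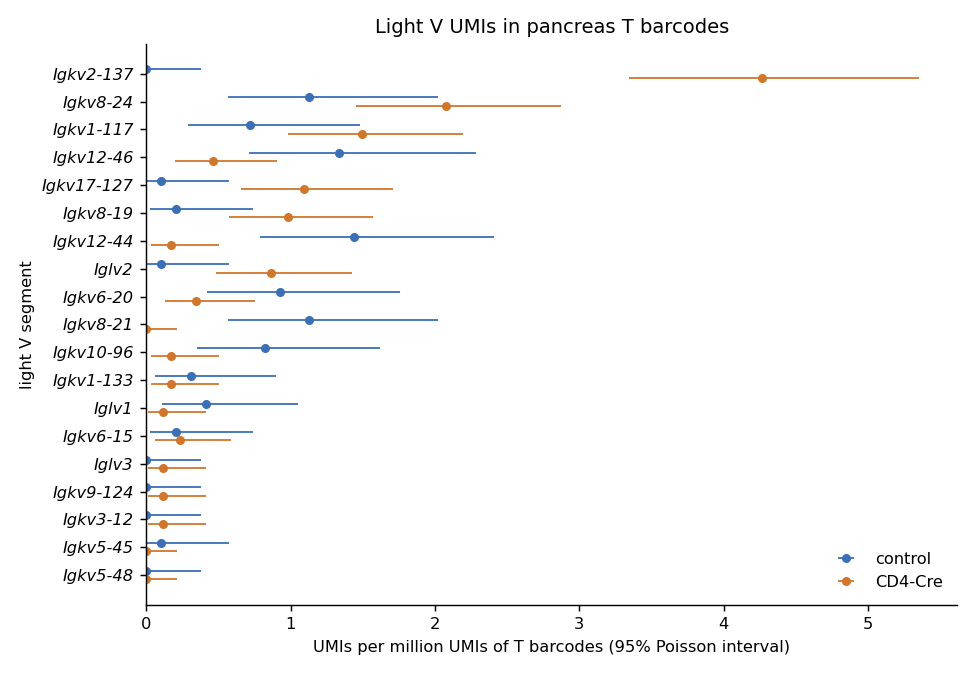
Light V CPM in T barcodes (x axis) for the 5 leading segments of each of the 4 libraries and all lambda segments (y axis), shown for control (blue) and CD4-Cre (orange) pancreas with exact 95% Poisson intervals. Igkv2-137 stands at 4.26 in CD4-Cre and at 0 in control, and the next, Igkv8-24 in CD4-Cre, stands at 2.07.

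The lymph node libraries were read in the same way. In CD4-Cre, 3 plasma and 0 B barcodes were retained, and Igkv5-45 made up 79.4% of their light V UMIs and Iglv1 18.0%. Of the 27 light V UMIs in 5213 T barcodes of that library, Igkv5-45 gave 15 and Iglv1 gave 4. In the lymph node control, Igkv3-12 led with 12 UMIs in 7 T barcodes and Igkv6-15 with 9 in 7, although B and plasma barcodes held only 8 and 18 UMIs of them.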

How the data were processed

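The deposited files are whole-number UMI counts per feature and barcode, made by the authors with Cell Ranger on mm10, per the submitters' processing notes. The matrix header gives software version 3.0.0. The kit reads the 5′ end. The members and lists were chosen with earlier results of these data known. Barcodes with at least 500 genes and at most 10% mitochondrial UMIs were kept, and simulated doublets (0.8% per 1000 barcodes, scikit-learn 1.9.0) removed 164 and 388 in the pancreas. The leading segment had most UMIs, ties out. Segments named were the 10 leading in B and in plasma barcodes, every lambda segment, the 3 largest gains and losses and the 5 leading in T barcodes. Shares have exact Clopper-Pearson, levels exact Poisson and differences Newcombe 95% intervals (scipy 1.17.1). Ratios compare CPM, UMIs scaled to the class total. Alternative scalings were TMM (edgeR 4.0.16) and size factors (DESeq2 1.42.0), with no count model fitted. The scripts were tested on simulated data. Some marker results are not reported here. Sequences came from GENCODE M21, matched by gene identifier for 163 of 163 segments. UMIs of 1 barcode and barcodes of 1 clone are not independent, so intervals cover counting error only.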

Additional observations from a re-analysis of the deposited data

How the results depend on the processing

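Over 16 results, 104 of 123 alternative values stayed within the main value's counting interval or within 1.5 times its count. The plasma share of Igkv12-46, 37.3 points higher in CD4-Cre, turned to -5.56 when the leading segment had to hold 3 times the second, -4.73 in summed UMIs and -1.59 at a rule sum of at least 100. The plasma lambda difference of 3.15 points was 17.5 in summed UMIs and 16.7 at a rule sum of at least 100. The constant region call gave a B lambda difference of 3.21 points. The share of the 10 leading B segments was 48.9% in both libraries with at least 10 UMIs for the leading segment and 48.2% in CD4-Cre in summed UMIs. In plasma it was 92.0% and 92.4% in summed UMIs, and in control 100% at a rule sum of at least 100. Without Igkv2-137 the log2 T ratio was -0.088, and thinning to 2000 UMIs gave a difference of 1.29 points. Of plasma segments, 4 were 2-fold higher with only 1 UMI per library required, since segments at 0 drop out. In T barcodes a minimum of 5 UMIs gave 6 higher and 8 lower, and 1 UMI per library 5 and 6, as more segments enter. Except for these stated constructions, the cause was not tested. The planned octamer search was not run, because no promoter sequence of these segments was used here. No paired analysis was possible because each genotype has 1 library per tissue, and for the same reason no replicate could be left out.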
